A study of Mus musculus with 8 samples.

Results

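Deubiquitinating enzymes remove ubiquitin from proteins or trim ubiquitin chains, and so set how long a protein lasts, where it goes in the cell or what it binds. The USP and OTU classes and the smaller UCH class are cysteine proteases that differ in fold and in the chains they prefer. In TGFβ signalling, members of these classes are known to act on the receptors, on SMAD proteins and on the transcription factor SNAI1, opposite ubiquitin ligases such as SMURF1 and SMURF2. The genes described here are the rows of the expression table whose symbol starts with Usp and a digit, Otud, Otub or Uchl and whose mean over the 8 libraries was at least 10 normalised counts. Of 18102 rows in the table, 70 matched by symbol and 60 reached that mean: 48 of 55 Usp rows, 6 of 8 Otud rows, 2 of 2 Otub rows and 4 of 5 Uchl rows. Usp6nl matches by symbol only, since it encodes a Rab GTPase-activating protein and not a protease. The 10 rows below the mean were Otud6a, Otud7a, Uchl1os, Usp13, Usp17lb, Usp17ld, Usp17le, Usp26, Usp50 and Usp51. Just inside the limit were Usp17lc with a mean of 10.0 and Usp2 with 10.1 normalised counts, and just outside it were Usp17le with 9.88 and Usp17lb with 7.59.

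RNA was sequenced from NMuMG, a mouse mammary gland epithelial line used to study how TGFβ turns epithelial cells mesenchymal. The 8 libraries form 4 groups of 2. Cells labelled as an RREB1 knockout (KO-labelled) and WT cells were each given 100 pM TGFβ for 1.5 h or 2.5 µM SB505124, which blocks the kinase of the TGFβ type I receptor, for 6 h. All groups had been serum starved for 6 h, no group was left untreated, and the treatments differ in length as well as in agent. All KO columns carry the code KO1, taken here as 1 clone, so the genotype and the clone cannot be told apart. No label states that replicates were grown as separate cultures. The p-values therefore cover the spread between these libraries, which may be technical.

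Rreb1, the gene named by the KO label, had 2481 and 2241 normalised counts in the KO-labelled TGFβ libraries, against 1959 and 1769 in the WT TGFβ libraries. Under SB505124 it had 1327 and 1343 in the KO-labelled libraries and 1055 and 1033 in the WT libraries. Rreb1 thus had its higher level in KO-labelled cells (log2 fold change 0.34 under TGFβ and 0.35 under SB505124, limma adjusted p = 0.00184 and 0.00153). Each direction given below for KO-labelled cells rests on that label. Library totals ran between 25144204 and 32143113 reads, and the first principal component, with 76.2% of the variance, separated the genotypes. Of 6 epithelial markers, 5 were in the table, and their summed level was 185510 to 272010 normalised counts in KO-labelled and 172759 to 234428 in WT libraries. Krt8, Krt18, Krt19 and Cdh1 carried that sum, while Epcam was at 0 in every KO-labelled library and had 4.01 to 36.6 in WT libraries, and Cldn3 was not listed. Summed fibroblast markers reached 150 at most, leukocyte markers 227, basal markers 82.9, endothelial markers 38.9 and adipocyte markers 14, with Plin1 not listed. Basal Krt5 had 56.8 to 82.1 in KO-labelled and at most 3.43 in WT libraries, and basal Krt14 was at 0 in every KO-labelled library and had 3.00 to 46.3 in WT libraries.

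Several members have near-copies, and the sequences that follow show how alike these genes are. The first 120 coding bases are printed, with bases that differ from the first gene of each set in capitals, from GENCODE M21 transcripts on GRCm38. Usp17la and Usp17lc are members, and Usp17ld fell below the mean. All 3 lie on chromosome 7 and belong to the mouse DUB/USP17 genes, first known as cytokine-inducible genes of lymphocytes. Uchl3 lies on chromosome 14 and its intronless copy Uchl4 on chromosome 9.
Usp17la: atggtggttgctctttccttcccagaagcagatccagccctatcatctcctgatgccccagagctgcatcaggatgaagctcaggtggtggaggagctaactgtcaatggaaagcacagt
Usp17lc: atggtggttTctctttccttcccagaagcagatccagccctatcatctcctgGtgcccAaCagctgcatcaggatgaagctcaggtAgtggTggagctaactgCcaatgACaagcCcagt
Usp17ld: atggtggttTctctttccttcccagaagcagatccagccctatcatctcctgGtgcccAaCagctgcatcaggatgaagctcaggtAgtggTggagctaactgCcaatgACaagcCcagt
Uchl3: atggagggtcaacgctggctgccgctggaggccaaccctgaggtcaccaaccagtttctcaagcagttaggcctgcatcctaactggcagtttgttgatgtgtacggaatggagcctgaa
Uchl4: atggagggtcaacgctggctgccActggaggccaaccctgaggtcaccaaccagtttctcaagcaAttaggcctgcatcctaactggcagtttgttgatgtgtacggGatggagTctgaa
Usp17lc and Usp17ld each differed from Usp17la at 10 of the 120 bases and from each other at 0, and Uchl4 differed from Uchl3 at 4. Over whole transcripts, 20.4% of the 50-base stretches of Usp17la, 44.7% of Usp17lc, 26.2% of Uchl4 and 7.5% of Uchl3 also occur in another annotated gene. Values of these 4 members can therefore include reads of a copy or lack some reads of their own. The same holds for Usp1 (22.8%, shared with Gm5841), Usp9x (7.3%) and Otud6b (6.2%). Usp54 shares 5.4% with 1810062O18Rik and 2810402E24Rik, which overlap 7.0% of its exon bases on the other strand. The library kit does not mark the strand, so exons that overlap another gene cannot be separated either: 52.3% of the exon bases of Usp49, 26.0% of Usp14 (with Thoc1), 24.4% of Usp33, 20.5% of Usp38, 18.1% of Uchl1 (with its antisense gene Uchl1os), 14.8% of Usp29 (with Zim3), 12.8% of Usp43 and 11.6% of Usp34.

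Per kilobase of exon, the 60 members had a median level of 193.4 normalised counts, against 194.5 for the 11922 tested genes with a position in the annotation. Otub1, which also blocks ubiquitin-conjugating enzymes without cutting, was highest at 2185 normalised counts per kilobase. Usp5, which takes apart free ubiquitin chains, followed at 1129, Usp39, a catalytically inactive splicing factor, at 1041, Otud4 at 1038, Uchl5 at 852 and Usp7, which acts on MDM2 and p53, at 817.5. The lowest were Usp2 at 2.10, Usp29 at 3.11, Usp17lc at 4.09 and Usp44 at 4.45. Over all libraries Usp5, Usp39 and Otud4 stood close to one another, and their order changed between the 4 groups. In WT cells under TGFβ they were not close, with Otud4 at 768, Usp5 at 1077 and Usp39 at 1080.

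Far more members were lower than higher under TGFβ, compared with SB505124. In KO-labelled cells 17 of 60 members were lower under TGFβ than under SB505124 and 1 was higher (limma, Benjamini-Hochberg adjusted p under 0.05 over 12498 genes), where 15.8% of all tested genes were lower and 15.1% higher. In WT cells 26 of 60 were lower and 1 higher, where 23.2% of all genes were lower and 20.2% higher. The median log2 fold change of the members was -0.10 in KO-labelled and -0.14 in WT cells, against -0.02 and -0.01 for all tested genes. Below 0 lay 40 members in KO-labelled and 45 in WT cells, where 52.2% and 51.1% of all genes did. In bulk RNA, fewer cells of a kind and less RNA per cell cannot be told apart. The 15 members lower in both genotypes were 88.2% of the 17 and 57.7% of the 26, and 25% of the 60 members where 12.5% of all tested genes were lower in both. They were Otub2, Otud1, Otud6b, Usp14, Usp17la, Usp20, Usp31, Usp32, Usp34, Usp36, Usp38, Usp40, Usp45, Usp46 and Usp9x. Of these 15 the fitted fall was larger in KO-labelled cells for 5 and in WT cells for 10. The count in KO-labelled cells rested on single libraries: it was 7 without SB505124 replicate 1 and 8 without TGFβ replicate 2, while in WT cells it was 19 to 27 with any 1 library left out. Of 18 calls in KO-labelled cells 8 held whichever library was left out, and of 27 in WT cells 20 did. Not named again below are Usp31 (adjusted p 0.00395 to 0.447 over the alternatives), Usp38 (0.0122 to 0.2) and Usp40 (0.00154 to 0.252), each lost in KO-labelled cells without SB505124 replicate 1 and without TGFβ replicate 2, and Usp6nl (0.0085 to 0.174), lost in WT cells without either SB505124 library or TGFβ replicate 1. Usp38 was also lost without KO-labelled TGFβ replicate 1, and Usp31 without either WT SB505124 library.

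**Figure D1:**
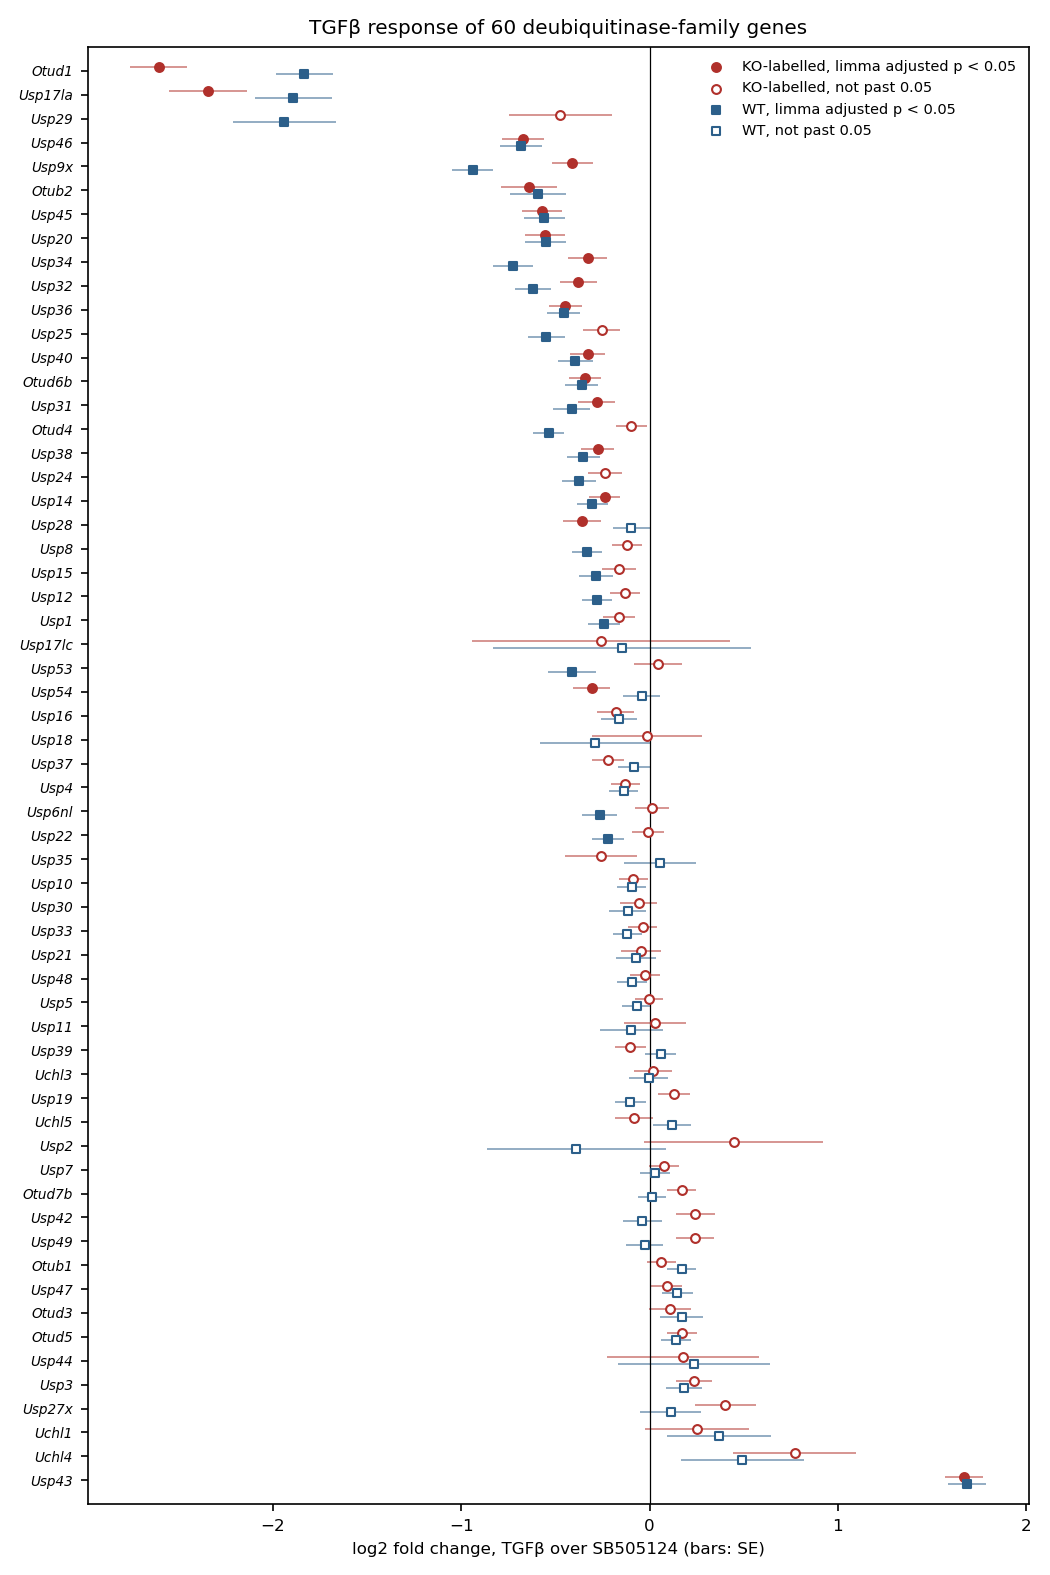
Log2 fold change of TGFβ over SB505124 (x axis, bars are SE of the model) for each of the 60 members (y axis, ordered by the mean of both genotypes), with circles for KO-labelled and squares for WT cells. Filled symbols passed limma adjusted p under 0.05. Usp43 alone stands to the right among the filled symbols, and Otud1 and Usp17la lie farthest to the left in KO-labelled cells.

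Usp43, a less studied protease of the USP class, was the 1 member higher under TGFβ in both genotypes. It had 885 and 869 normalised counts in the KO-labelled TGFβ libraries, against 291 and 259 in the KO-labelled SB505124 libraries. In WT cells it had 1104 and 1023 under TGFβ and 333 and 325 under SB505124. Every TGFβ library lay above every SB505124 library. The rise was 3.19-fold in KO-labelled cells (log2 1.67, SE 0.10, limma adjusted p = 1.76e-10) and 3.23-fold in WT cells (log2 1.69, SE 0.10, limma adjusted p = 1.88e-10). The difference between these responses was -0.02 log2 (SE 0.14, limma adjusted p = 0.976). Usp43 lies on the minus strand of chromosome 11, and 9130017K11Rik shares part of its exons on the other strand.

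Otud1 encodes an OTU-class enzyme reported to act on SMAD7, the inhibitory SMAD. Its levels were 47.2 and 62.5 normalised counts in the KO-labelled TGFβ libraries, against 348 and 324 in the KO-labelled SB505124 libraries. In WT cells they were 148 and 177 under TGFβ and 583 and 577 under SB505124. The 4 groups do not overlap, with the KO-labelled TGFβ libraries lowest and the WT SB505124 libraries highest. Otud1 fell by 83.7% in KO-labelled cells (log2 -2.61, SE 0.15, limma adjusted p = 8e-11) and fell by 71.9% in WT cells (log2 -1.83, SE 0.15, limma adjusted p = 1.92e-08). The fall was larger by -0.77 log2 in KO-labelled cells (SE 0.21), which did not pass the threshold (limma adjusted p = 0.0579). Over the 17 alternatives that adjusted p ran between 0.0118 and 0.323, and it passed in 4, among them without WT TGFβ replicate 1 (0.0118) and without KO-labelled TGFβ replicate 2 (0.0162).

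Usp17la, the DUB/USP17 gene with the most reads, had 20.2 and 18.5 normalised counts in the KO-labelled TGFβ libraries, against 101 and 103 under SB505124. The WT values were 35.8 and 37.7 under TGFβ and 144 and 134 under SB505124. Here too the 4 groups were separate, and both TGFβ groups lay below both SB505124 groups. The log2 fold change was -2.34 in KO-labelled cells (SE 0.20, limma adjusted p = 3.72e-08) and -1.89 in WT cells (SE 0.20, limma adjusted p = 7.54e-07), and the difference of -0.45 did not pass (limma adjusted p = 0.467). Of 5 DUB/USP17 genes in the table, 2 were members, and Usp17lc was not called in either response.

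Because Otud1 and Usp17la fell together, their promoter windows are shown (250 bases before to 50 after the RefSeq start, GRCm38.p6, plus strand). The motifs searched on both strands were CAGACA, a SMAD-binding element, and TGAGTCA or TGACTCA, the AP-1 site, and matches are in capitals.
Otud1, chr2:19657481-19657780: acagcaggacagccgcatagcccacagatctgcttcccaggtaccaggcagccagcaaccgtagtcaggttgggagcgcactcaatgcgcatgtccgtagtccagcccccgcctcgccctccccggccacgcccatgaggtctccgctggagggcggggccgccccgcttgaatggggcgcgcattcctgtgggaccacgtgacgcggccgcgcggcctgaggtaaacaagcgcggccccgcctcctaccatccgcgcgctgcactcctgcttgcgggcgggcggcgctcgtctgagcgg
Usp17la, chr7:104856766-104857065: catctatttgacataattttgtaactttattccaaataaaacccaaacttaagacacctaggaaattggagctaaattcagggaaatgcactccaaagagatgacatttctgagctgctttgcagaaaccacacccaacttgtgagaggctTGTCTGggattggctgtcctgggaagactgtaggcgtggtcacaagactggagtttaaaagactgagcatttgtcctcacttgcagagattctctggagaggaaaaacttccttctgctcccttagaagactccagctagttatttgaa
The Otud1 window holds neither motif, 33 CpG and 70.3% G and C. The Usp17la window holds 1 CAGACA match on the minus strand, 99 bases before the start, no AP-1 match, 1 CpG and 42.0% G and C. Promoter entries were matched for 46 of the 60 members. CAGACA was found in 9 of the 46 (19.6%), against 21% of all 27025 promoter windows, and the AP-1 site in 3 (6.5%), against 5.2%.

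In WT cells the largest fall was that of Usp29 (log2 -1.94, described below), ahead of Usp17la and Otud1. Next in size there was Usp9x, a large X-linked enzyme known to remove monoubiquitin from SMAD4. It had 8211 and 6576 normalised counts in the KO-labelled TGFβ libraries, against 10725 and 8891 under SB505124. WT cells held 4784 and 5660 under TGFβ and 9808 and 10150 under SB505124. Groups did not overlap in either genotype, and the WT TGFβ libraries were the lowest of the 8. The log2 fold change was -0.41 in KO-labelled cells (SE 0.11, limma adjusted p = 0.0073) and -0.94 in WT cells (SE 0.11, limma adjusted p = 1.71e-06). The call in KO-labelled cells was lost without SB505124 replicate 1 (limma adjusted p = 0.122) and without TGFβ replicate 2 (limma adjusted p = 0.184), and the adjusted p ran between 0.000707 and 0.184 over the alternatives. The responses differed by 0.53 log2 (SE 0.15), which did not pass with limma (adjusted p = 0.0741) and passed in 5 of 17 alternatives (0.00891 to 0.444 over all 17), with edgeR at 0.0498 and DESeq2 at 0.0333. Those 5 included leaving out WT TGFβ replicate 2 (0.00891), KO-labelled SB505124 replicate 1 (0.0127) or KO-labelled TGFβ replicate 2 (0.0237).

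Usp46, which works with the partner proteins WDR48 and WDR20, had 1404 and 1258 normalised counts in the KO-labelled TGFβ libraries and 2274 and 1970 under SB505124. WT libraries held 788 and 1005 under TGFβ and 1352 and 1511 under SB505124. TGFβ was below SB505124 in both genotypes without overlap, by log2 -0.67 in KO-labelled cells (SE 0.11, limma adjusted p = 0.000104) and -0.68 in WT cells (SE 0.11, limma adjusted p = 7.11e-05). Usp12, its closest relative, fell in WT cells to 1710 and 1805 under TGFβ, against 2129 and 2140 under SB505124 (limma adjusted p = 0.00796). The Usp12 call was lost without WT SB505124 replicate 1 or replicate 2 (adjusted p 0.00597 to 0.057 over the alternatives). Its KO-labelled libraries had 2557 and 2409 under TGFβ and 2832 and 2610 under SB505124 and did not pass. Otub2, a small OTU-class enzyme, had 110 and 114 in KO-labelled TGFβ libraries and 178 and 172 under SB505124 (log2 -0.64, SE 0.15, limma adjusted p = 0.00282). In WT cells Otub2 had 101 and 104 under TGFβ and 162 and 148 under SB505124 (log2 -0.59, SE 0.15, limma adjusted p = 0.00362). Both Otub2 falls were free of overlap, whereas the second Otub gene, Otub1, was not called in any comparison.

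Usp34, one of the longest members and a regulator of axin in WNT signalling, had 4406 and 3592 normalised counts in KO-labelled TGFβ libraries and 5565 and 4473 under SB505124, and the lower SB505124 library lay close to the higher TGFβ library. In WT cells it had 2225 and 2446 under TGFβ and 3789 and 3926 under SB505124, clearly apart. The log2 fold change was -0.33 in KO-labelled (SE 0.10, limma adjusted p = 0.0232) and -0.73 in WT cells (SE 0.10, limma adjusted p = 2.14e-05). Only the WT call held without each library: in KO-labelled cells the adjusted p was 0.346 without SB505124 replicate 1 and 0.349 without TGFβ replicate 2 (0.00118 to 0.349 over all alternatives). Usp45, which is known to act on the repair nuclease subunit ERCC1, had 753 and 601 in KO-labelled TGFβ libraries and 1083 and 922 under SB505124 (log2 -0.57, SE 0.11, limma adjusted p = 0.000429). In WT cells Usp45 had 864 and 853 under TGFβ and 1280 and 1249 under SB505124 (log2 -0.56, SE 0.11, limma adjusted p = 0.000397). Neither Usp45 comparison had overlapping groups. Otud6b, an OTU-class enzyme, had 1367 and 1356 in KO-labelled TGFβ libraries and 1858 and 1607 under SB505124 (log2 -0.34, SE 0.09, limma adjusted p = 0.00479, lost without SB505124 replicate 1 at 0.114, 0.00113 to 0.114 over the alternatives). In WT cells Otud6b had 1913 and 2078 under TGFβ and 2543 and 2574 under SB505124 (log2 -0.36, SE 0.09, limma adjusted p = 0.00236). Its groups were apart in both genotypes.

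**Figure D2:**
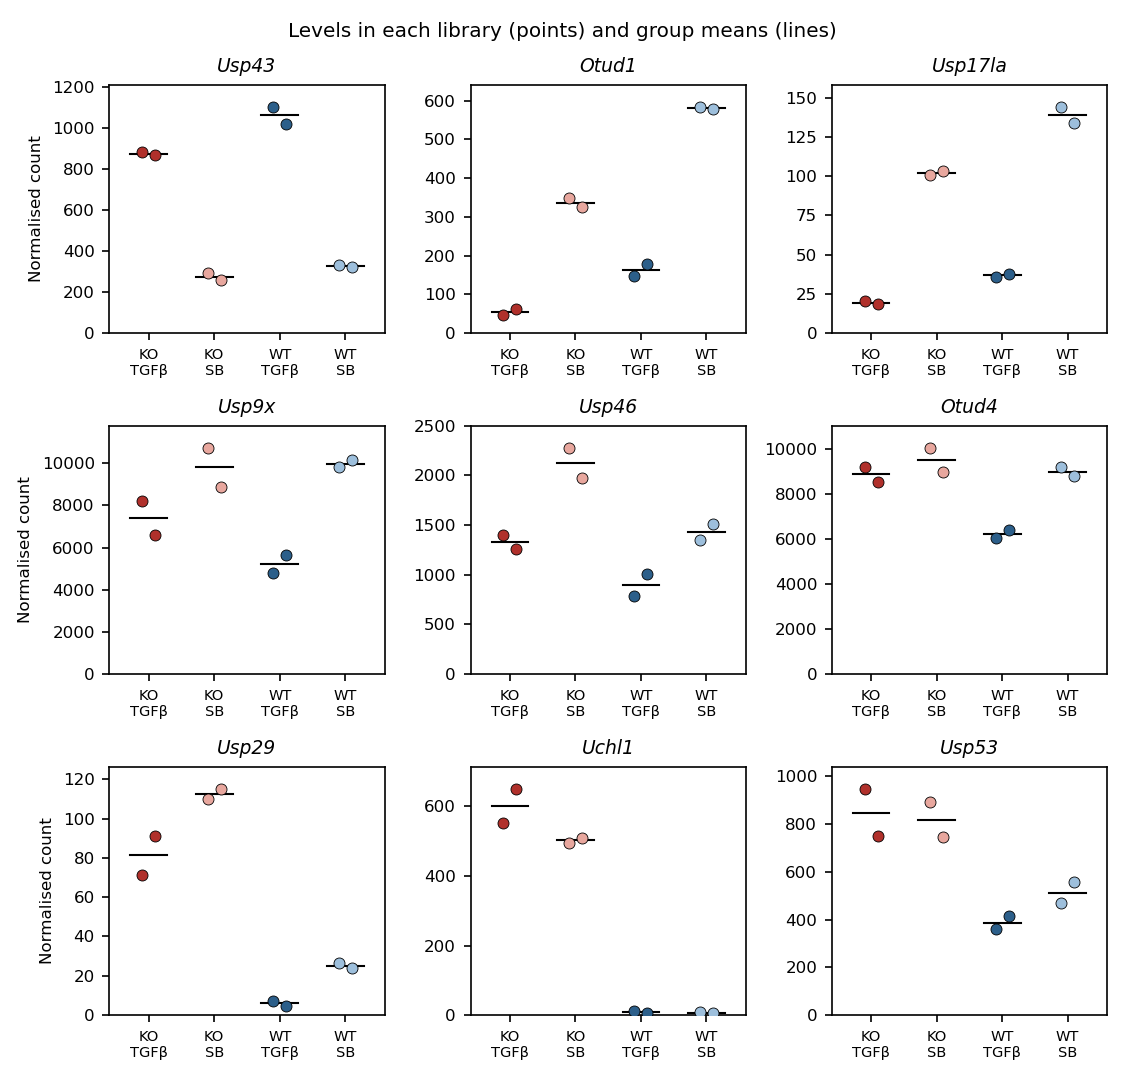
Normalised counts (y axes, from 0) of 9 members in each library (points) with the group mean (line), for KO-labelled and WT cells under TGFβ or SB505124 (SB). Usp43 is high in the 4 TGFβ libraries, Otud1 and Usp17la are low there, Otud4 is low only in the WT TGFβ libraries, and Uchl1 is near 0 in all 4 WT libraries.

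Of 10 listed deubiquitinases with a published action on TGFβ receptors or SMADs, 9 were tested and Usp26 was not. In KO-labelled cells 2 of the 9 (Otud1 and Usp9x) were lower under TGFβ than under SB505124 and 0 were higher. Their median log2 was -0.09 against -0.02 for all genes. In WT cells 3 of the 9 (Otud1, Usp9x and Usp15) were lower and 0 higher, with a median of -0.14 against -0.01. Over all genes 15.8% were lower and 15.1% higher in KO-labelled cells, and 23.2% and 20.2% in WT cells. Usp15, which acts on the type I receptor and on receptor-activated SMADs, had 3483 and 3399 normalised counts in KO-labelled TGFβ libraries and 3995 and 3710 under SB505124, apart but not past the threshold (limma adjusted p = 0.183). WT levels were 2439 and 2727 under TGFβ and 2889 and 3418 under SB505124 (log2 -0.29, SE 0.09, limma adjusted p = 0.0149). That call was lost without WT SB505124 replicate 2 (limma adjusted p = 0.262) and without WT TGFβ replicate 1 (limma adjusted p = 0.104), with 0.00455 to 0.262 over the alternatives. Usp4 and Usp11, the closest relatives of Usp15 and known to act on the type I receptor, were not called in either response. Usp4 had 3786 and 3609 in KO-labelled TGFβ libraries, 4165 and 3918 under SB505124, and in WT cells 3181 and 3400 under TGFβ and 3555 and 3680 under SB505124. Usp11 had 97.6 to 108 in KO-labelled and 100 to 121 in WT libraries, with the treatments overlapping in both. Usp10, reported to act on SMAD4, had 3285 and 3300 in KO-labelled TGFβ libraries, 3374 and 3621 under SB505124, and in WT cells 2954 and 3097 under TGFβ and 3158 and 3306 under SB505124, without a call. Otub1, reported to protect phosphorylated SMAD2 and SMAD3, lay between 5248 and 5885 in KO-labelled and between 5147 and 6029 in WT libraries and was also not called. Uchl5, which binds the proteasome and SMADs, had 2484 and 2594 in KO-labelled TGFβ libraries, 2706 and 2663 under SB505124, and in WT cells 2139 and 2813 under TGFβ and 2198 and 2322 under SB505124. The WT TGFβ libraries of Uchl5 straddle the SB505124 ones, and without WT TGFβ replicate 1 a rise of 0.32 log2 was called (limma adjusted p = 0.00775, 0.00775 to 0.689 over the alternatives). Usp2 had few counts in every library, 7.70 and 6.15 under TGFβ and 6.51 and 3.45 under SB505124 in KO-labelled cells, and 15.8 and 9.14 under TGFβ and 17.2 and 15 under SB505124 in WT cells.

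The other groups of members were counted the same way, and each count stands beside 15.8% of all genes lower in KO-labelled and 23.2% in WT cells, so that 1 of 8 is close to the background. Among the enzymes reported to act on SNAI1 and its relatives, 1 of 8 was lower under TGFβ in KO-labelled cells (Usp36). In WT cells 3 of 8 were lower (Usp1, Usp29 and Usp36), and 0 were higher in either genotype. Usp27x, reported to stabilise SNAI1 under TGFβ, had 121 and 115 normalised counts in KO-labelled TGFβ libraries, 87.5 and 90.7 under SB505124, and in WT cells 116 and 112 under TGFβ and 102 and 108 under SB505124. Both Usp27x pairs were apart with TGFβ higher, yet neither passed (limma adjusted p = 0.0663 in KO-labelled and 0.6 in WT cells). In endosome and receptor trafficking, 3 of 7 members were lower under TGFβ in KO-labelled cells (Usp32, Usp46 and Usp9x). In WT cells 5 of 7 were lower, which added Usp8 and Usp12. The Usp32 call in KO-labelled cells was lost without SB505124 replicate 1 or TGFβ replicate 2 and without the variance trend (adjusted p 0.000493 to 0.143 over the alternatives), and without SB505124 replicate 1 Usp9x was lost too, which leaves Usp46. The median log2 of this group was -0.13 in KO-labelled and -0.39 in WT cells. Among 8 innate immunity and NF-kB members, Otub2 was lower in KO-labelled cells and Otub2, Otud4 and Usp25 in WT cells. The p53 and MDM2 group of 8 had Otud1 lower in KO-labelled cells and Otud1 and Usp24 in WT cells. The DNA repair and replication group of 8 had Usp28 lower in KO-labelled and Usp1 in WT cells. Among 5 mitochondrial and ER members Usp20 was lower in both genotypes. Of the 2 proteasome-bound enzymes Usp14 was lower in both, and of 7 histone H2A and H2B enzymes 0 were called in KO-labelled cells and Usp22 was lower in WT cells. The Usp1 call in WT cells was lost without either SB505124 library, without TGFβ replicate 1, with no filter and with no variance trend (adjusted p 0.00483 to 0.252 over the alternatives). The Usp28 call was lost without KO-labelled SB505124 replicate 1 or TGFβ replicate 2 (0.0048 to 0.119). The Usp14 call in KO-labelled cells was lost in 8 of 17 alternatives, among them TMM scaling and leaving out KO-labelled SB505124 replicate 1, either KO-labelled TGFβ library or either WT SB505124 library (0.0142 to 0.25). In WT cells Usp14 was lost without SB505124 replicate 2 or TGFβ replicate 1 (0.0011 to 0.076). The Usp22 call was lost in 10 of 17 alternatives (0.00757 to 0.33): with edgeR, DESeq2, the replicate block, no filter or no variance trend, and without either WT SB505124 library, WT TGFβ replicate 1 or either KO-labelled TGFβ library.

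The 31 members called in neither response had log2 fold changes between -0.26 and 0.77 in KO-labelled cells and between -0.39 and 0.49 in WT cells. The highest of both ranges belong to Uchl4, which had 26.0 and 21.5 normalised counts in KO-labelled TGFβ libraries, 14 and 13 under SB505124, and in WT cells 32.6 and 22.9 under TGFβ and 19.3 and 19.0 under SB505124. Its parent Uchl3 had 1197 and 1268 in KO-labelled TGFβ libraries, 1267 and 1166 under SB505124, and in WT cells 1379 and 1646 under TGFβ and 1381 and 1655 under SB505124. Those Uchl3 pairs overlap in both genotypes, while the Uchl4 pairs do not. Of the 60 members, 12 were called in no comparison of the study: Otub1, Uchl4, Usp4, Usp5, Usp7, Usp10, Usp11, Usp16, Usp27x, Usp30, Usp37 and Usp39.

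The difference of the responses between the genotypes was tested directly. It was called higher (KO-labelled minus WT) for 2 of 60 members, Otud4 and Usp29, where 2.25% of all genes were called, and lower for 0, where 0.568% were called. Unadjusted p (limma) was under 0.05 for 8 members, but the share of all genes was not counted, so nothing is read from that. The median of the difference over the members was 0.06 log2, against 0.015 over all genes, and 41 of 60 members lay above 0. Below 0 lay 31.7% of the members and 47.2% of all genes.

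Otud4, an OTU-class enzyme with roles in the repair of alkylated DNA, had 9213 and 8554 normalised counts in the KO-labelled TGFβ libraries and 10039 and 8985 under SB505124. WT levels were 6043 and 6387 under TGFβ and 9204 and 8791 under SB505124. The WT TGFβ libraries stood apart from the other 6, and the KO-labelled pairs overlapped. Its log2 fold change was -0.10 in KO-labelled (SE 0.08, limma adjusted p = 0.4) and -0.53 in WT cells (SE 0.08, limma adjusted p = 4.25e-05), and the difference was 0.44 (SE 0.12, limma adjusted p = 0.0486). That difference kept its sign in all 17 alternatives, with adjusted p between 0.00964 and 0.3, and lost its call in 9. The libraries whose removal ended it were WT SB505124 replicate 1 (0.262) and 2 (0.144), KO-labelled SB505124 replicate 2 (0.155), and KO-labelled TGFβ replicate 1 (0.3) and 2 (0.0616).

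Usp29, an imprinted gene expressed from the paternal copy beside Peg3, had 71.2 and 91.2 normalised counts in the KO-labelled TGFβ libraries and 110 and 115 under SB505124. In WT cells it had 7.37 and 4.57 under TGFβ and 26.4 and 24.0 under SB505124. All 4 groups were separate, with both KO-labelled groups far above both WT groups. The log2 fold change was -0.47 in KO-labelled (SE 0.27, limma adjusted p = 0.205) and -1.94 in WT cells (SE 0.27, limma adjusted p = 1.7e-05). The difference was 1.46 (SE 0.39, limma adjusted p = 0.0479) and lost its call in 13 of 16 alternatives, with adjusted p between 0.00451 and 0.185. Leaving out any library but WT TGFβ replicate 1 ended it, with limma adjusted p = 0.184 and 0.118 without WT SB505124 replicates 1 and 2, 0.109 without WT TGFβ replicate 2, 0.125 and 0.0883 without KO-labelled SB505124 replicates 1 and 2, and 0.101 and 0.137 without KO-labelled TGFβ replicates 1 and 2. Peg3, chosen for its position after its values were seen, had 8160 and 6318 in KO-labelled TGFβ libraries, 10482 and 9346 under SB505124, and in WT cells 646 and 657 under TGFβ and 1788 and 1651 under SB505124. Its response was -0.46 log2 in KO-labelled and -1.40 in WT cells, and the difference was 0.93 (SE 0.14, limma adjusted p = 0.000786).

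Between the genotypes, many members differed, in both directions. Under TGFβ 26 of 60 members were higher and 12 lower in KO-labelled than in WT cells, where 32.7% of all genes were higher and 30.2% lower. Under SB505124 22 were higher and 14 lower, where 29.2% of all genes were higher and 27.7% lower. The median over the members was 0.13 log2 under TGFβ and 0.11 under SB505124, against 0.01 and 0.01 over all genes. A call of the same direction under both treatments was made for 20 higher (33.3%) and 11 lower members (18.3%), where 25.2% of all tested genes were higher and 23.2% lower under both. Uchl1, Usp17lc and Usp2 reached the mean of 10 through 1 genotype only, with means of 552 in KO-labelled and 7.87 in WT libraries for Uchl1, 19.0 and 1.08 for Usp17lc, and 5.96 and 14.3 for Usp2. They had to differ to be members, so their genotype differences are given as a description with no test, although the counts include them. Leaving out 1 library moved the counts under SB505124: 13 were higher without KO-labelled SB505124 replicate 1, and 8 were lower without WT SB505124 replicate 1 or without KO-labelled SB505124 replicate 2.

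Uchl1, an enzyme best known from neurons, showed the widest gap of the family. It had 552 and 650 normalised counts in KO-labelled and 12.6 and 5.71 in WT TGFβ libraries. Under SB505124 it had 495 and 510 in KO-labelled and 8.11 and 5.01 in WT libraries. WT levels were near 0 throughout, and the fitted log2 fold change was 5.97 under TGFβ and 6.09 under SB505124. Its antisense gene Uchl1os never exceeded 0.963. Uchl1 was called in neither TGFβ response, although without WT TGFβ replicate 2 a rise of 0.88 log2 was called in WT cells (limma adjusted p = 0.00445, 0.00445 to 0.888 over the alternatives).

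Usp29 differed with log2 fold changes of 3.58 under TGFβ (SE 0.27, limma adjusted p = 2e-09) and 2.12 under SB505124 (SE 0.27, limma adjusted p = 2.38e-06), from the library values given above. Its neighbour Peg3 differed by 3.46 and 2.53 log2. Usp17lc had 8.66 and 28.7 normalised counts in KO-labelled and 0 and 2.29 in WT TGFβ libraries, and 21.4 and 17.3 in KO-labelled and 1.01 and 1.00 in WT SB505124 libraries. With 37 reads in the KO-labelled and 2 in the WT TGFβ libraries, the ratio was 16.8, and with 43 and 2 reads under SB505124 it was 19.1. Usp17lc had to differ to be a member, so these ratios are a description and no interval is given. Of the DUB/USP17 genes below the mean, Usp17ld had 6.74 to 16.4 in KO-labelled and 1.14 to 3.04 in WT libraries, Usp17le had 13.8 to 25.1 and 0 to 3.04, and Usp17lb had 4.81 to 16.4 and 2.03 to 8.42, with overlap. Usp17la ran the other way, lower in KO-labelled cells under TGFβ by log2 -0.89 (SE 0.20, limma adjusted p = 0.000948), while its -0.44 under SB505124 did not pass (limma adjusted p = 0.0752).

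Usp53, a USP-class protein found at tight junctions, had 947 and 750 normalised counts in KO-labelled and 359 and 413 in WT TGFβ libraries. Under SB505124 it had 893 and 746 in KO-labelled and 471 and 556 in WT libraries. KO-labelled libraries were higher without overlap, by 1.13 log2 under TGFβ (SE 0.13, limma adjusted p = 3.56e-07) and 0.67 under SB505124 (SE 0.13, limma adjusted p = 0.000171). Usp53 also fell under TGFβ in WT cells (log2 -0.41, SE 0.13, limma adjusted p = 0.014), a call lost without WT SB505124 replicate 2 (0.177) or WT TGFβ replicate 1 (0.0781), with 0.00477 to 0.177 over the alternatives. Usp54, its closest relative, ran the other way: 375 and 347 in KO-labelled and 775 and 786 in WT TGFβ libraries, and 458 and 435 in KO-labelled and 806 and 801 in WT SB505124 libraries. The Usp54 groups were far apart, with log2 fold changes of -1.11 under TGFβ (SE 0.10, limma adjusted p = 1.31e-08) and -0.85 under SB505124 (SE 0.10, limma adjusted p = 5.3e-07). In KO-labelled cells Usp54 also fell under TGFβ (log2 -0.31, SE 0.10, limma adjusted p = 0.0219), lost without SB505124 replicate 1 (0.148) or TGFβ replicate 2 (0.174), with 0.0175 to 0.174 over the alternatives. Usp44, known from the mitotic checkpoint, had 22.1 and 32.8 in KO-labelled and 12.6 and 9.14 in WT TGFβ libraries, and 26.1 and 21.6 in KO-labelled and 13.2 and 6.01 in WT SB505124 libraries. It was higher in KO-labelled cells by 1.25 log2 under TGFβ (SE 0.40, limma adjusted p = 0.0115) and 1.31 under SB505124 (SE 0.40, limma adjusted p = 0.00956). Those calls were lost without WT TGFβ replicate 2 (0.0625), KO-labelled TGFβ replicate 2 (0.108), WT SB505124 replicate 2 (0.136) or KO-labelled SB505124 replicate 1 (0.0633), with 0.00554 to 0.108 over the alternatives under TGFβ and 0.00319 to 0.136 under SB505124.

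Among members lower in KO-labelled cells, Otud1 differed by -1.56 log2 under TGFβ (SE 0.15, limma adjusted p = 4.71e-08) and -0.79 under SB505124 (SE 0.15, limma adjusted p = 0.000191). Usp18, which removes the ubiquitin-like modifier ISG15, had 20.2 and 21.5 normalised counts in KO-labelled and 31.6 and 26.3 in WT TGFβ libraries, without a call, and 21.4 and 20.7 in KO-labelled and 40.5 and 31.0 in WT SB505124 libraries (limma adjusted p = 0.0405). The Usp2 values are those given above, with a fitted log2 difference of -1.56 under SB505124 and -0.73 under TGFβ. The Usp18 call was lost without WT replicate 1 (0.235), KO-labelled replicate 1 (0.109) or KO-labelled replicate 2 (0.12), with 0.00606 to 0.235 over the alternatives. Usp43 was lower in KO-labelled cells by -0.28 log2 under TGFβ and -0.26 under SB505124 (limma adjusted p = 0.0232 and 0.0347). Its call under TGFβ was lost without WT TGFβ replicate 1 (0.138) or KO-labelled TGFβ replicate 1 (0.0755) or 2 (0.0965), with 0.00553 to 0.138 over the alternatives. Under SB505124 it was lost without WT SB505124 replicate 1 (0.14) or 2 (0.0895) or KO-labelled SB505124 replicate 2 (0.238), with 0.0194 to 0.238.

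Many of the members lower in KO-labelled cells lay on chromosomes 4 and 14, where the median over all tested genes was lower too. All 6 members on chromosome 4 (Otud3, Otud6b, Usp1, Usp24, Usp45 and Usp48) and both on chromosome 14 (Uchl3 and Usp54) were called lower under both treatments, which makes 8 of the 12 lower calls under TGFβ and 8 of the 14 under SB505124. Without the variance trend or without 1 library some of these calls were lost. Uchl3 was lost under TGFβ without WT replicate 2 or KO-labelled replicate 1 (adjusted p 0.00177 to 0.21 over the alternatives) and under SB505124 without replicate 2 of either genotype (0.0034 to 0.236). Usp24 was lost under TGFβ without KO-labelled replicate 2 (0.000562 to 0.0589), and Otud3 under SB505124 without WT replicate 1 (0.00347 to 0.109). The median log2 difference of all 716 tested genes on chromosome 4 was -0.68 under TGFβ and -0.69 under SB505124, and that of the 392 on chromosome 14 was -0.58 and -0.62. The share of all genes there called lower was not counted, so the 8 calls are not read as a trait of the members. Usp1, which acts on FANCD2 and PCNA in DNA repair, had 2312 and 2091 normalised counts in KO-labelled and 3083 and 3552 in WT TGFβ libraries, and 2538 and 2386 in KO-labelled and 3865 and 3969 in WT SB505124 libraries. These groups were far apart (log2 -0.59 and -0.67, limma adjusted p = 8.36e-06 and 2.02e-06), yet each value lay above the median of its chromosome. Otud6b differed by -0.55 and -0.57 log2 (limma adjusted p = 1.93e-05 and 1.56e-05) and Usp45 by -0.35 and -0.34 (limma adjusted p = 0.00812 and 0.0115), also above that median. The Usp45 calls were lost without KO-labelled TGFβ replicate 2 (0.187) under TGFβ and without WT SB505124 replicate 1 (0.0778) or KO-labelled SB505124 replicate 2 (0.131) under SB505124, with 0.0017 to 0.187 and 0.0033 to 0.131 over the alternatives. Usp54 alone of these 8 lay below its chromosome's median, by -0.53 log2 under TGFβ and -0.23 under SB505124. On the other chromosomes, 26 of 52 members were called higher and 4 lower under TGFβ, and 22 higher and 6 lower under SB505124. Of the 10814 tested genes there, 35.3% were higher and 25.6% lower under TGFβ and 31.6% higher and 22.6% lower under SB505124. The higher counts of members include Uchl1 and Usp17lc, and the lower count under SB505124 includes Usp2. These members had to differ to be members. The part of the chromosome-wide shift in the members' differences was not tested.

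**Figure D3:**
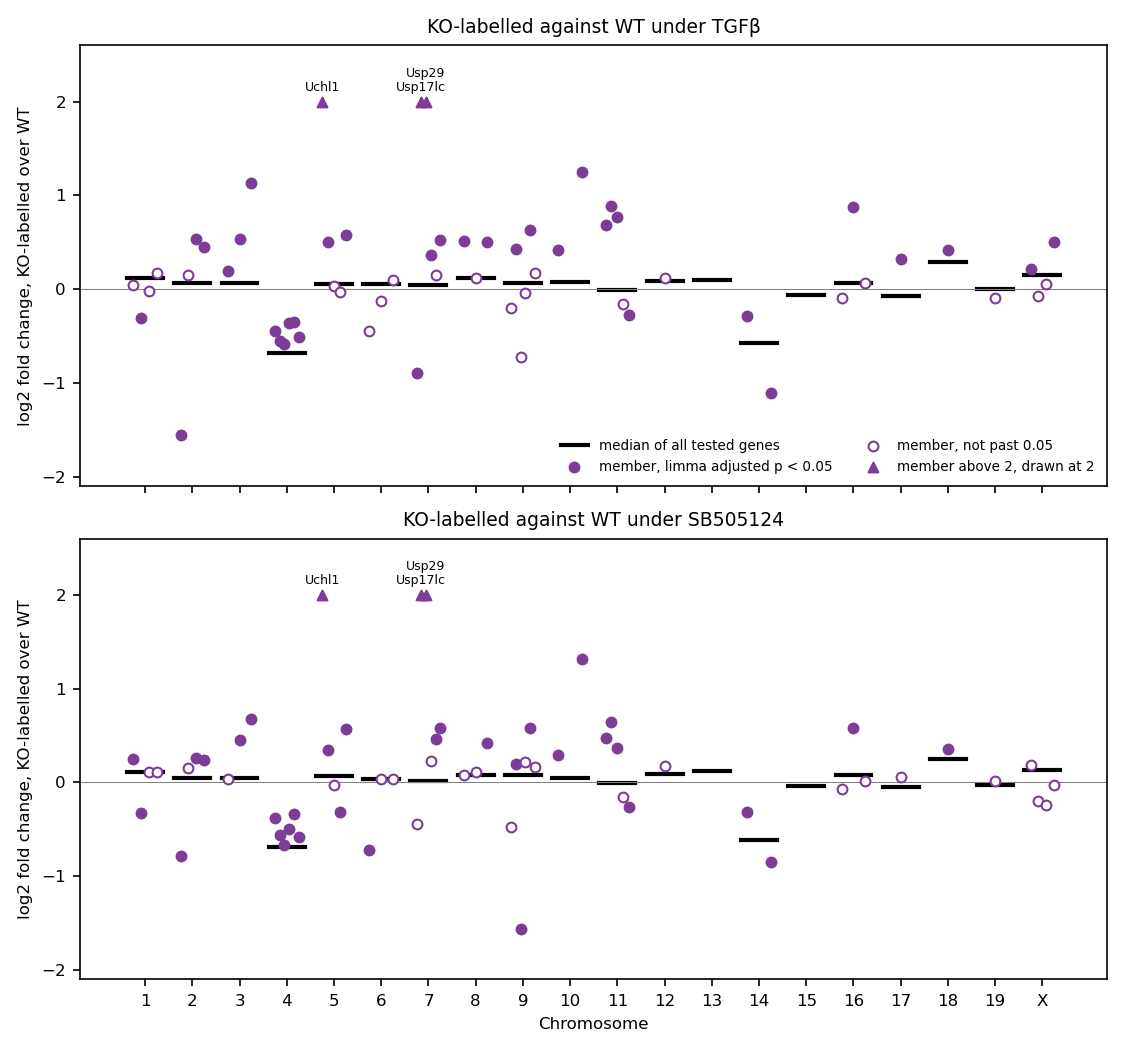
Log2 fold change of KO-labelled over WT cells (y axis) for the members on each chromosome (x axis), under TGFβ (top) and SB505124 (bottom), with the median of all tested genes of each chromosome as a bar. Filled points passed limma adjusted p under 0.05, and Uchl1, Usp29 and Usp17lc exceed the axis and are drawn at 2. All 8 members on chromosomes 4 and 14 lie below 0 where the bars are lowest.

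By function, endosome and receptor trafficking had 6 of 7 members higher and 0 lower in KO-labelled cells under TGFβ (Otud7b, Usp8, Usp9x, Usp12, Usp32 and Usp46) and 4 higher and 1 lower under SB505124, where 32.7% of all genes were higher under TGFβ and 29.2% under SB505124. The Otud7b call was lost with edgeR and without any 1 of the TGFβ libraries (adjusted p 0.027 to 0.174 over the alternatives). The Usp8 call under SB505124 was lost without either WT SB505124 library or KO-labelled SB505124 replicate 1 (0.0105 to 0.142). The group's median was 0.50 log2 under TGFβ and 0.23 under SB505124, against 0.01 over all genes under each. Usp9x differed by 0.50 log2 under TGFβ (limma adjusted p = 0.000603) and by -0.03 under SB505124 (limma adjusted p = 0.826), and Usp46 by 0.58 and 0.57 (limma adjusted p = 0.000163 and 0.000227). The histone enzymes had 4 of 7 higher and 1 lower under TGFβ and 3 higher and 1 lower under SB505124, with Usp3, Usp22 and Usp44 higher and Usp21 lower under both. Usp21 was lost under TGFβ without replicate 1 of either genotype (adjusted p 0.00537 to 0.283 over the alternatives) and under SB505124 without WT replicate 2 or KO-labelled replicate 1 (0.00595 to 0.128). Usp3, which acts on histone H2A, had 1415 and 1429 normalised counts in KO-labelled and 846 and 997 in WT TGFβ libraries, and 1242 and 1174 in KO-labelled and 766 and 852 in WT SB505124 libraries, without overlap. Usp22, the protease of the SAGA complex, had 3691 and 3406 in KO-labelled and 2060 and 2368 in WT TGFβ libraries, and 3663 and 3469 in KO-labelled and 2518 and 2628 in WT SB505124 libraries, again without overlap. The TGFβ pathway group of 9 had 2 higher (Usp15 and Usp9x) and 1 lower (Otud1) under TGFβ. Under SB505124 it had 2 higher (Usp15 and Uchl5) and 2 lower (Otud1 and Usp2). Usp2, also the 1 lower endosome member under SB505124, had to differ to be a member, so nothing is read from its call. Usp15 differed by 0.42 log2 under TGFβ (limma adjusted p = 0.000512) and 0.29 under SB505124 (limma adjusted p = 0.00895, lost without WT SB505124 replicate 1 at 0.205 and KO-labelled SB505124 replicate 1 at 0.0723, 0.00266 to 0.205 over the alternatives). The Uchl5 call of 0.25 log2 (limma adjusted p = 0.0408) was lost in 9 of 17 alternatives (0.00576 to 0.213), including without any 1 of the SB505124 libraries or the KO-labelled TGFβ libraries, at 0.0529 to 0.213.

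Counts in this paragraph stand beside 32.7% of all genes higher and 30.2% lower under TGFβ, and 29.2% and 27.7% under SB505124. For calls under both treatments the shares were 25.2% and 23.2%. Of the enzymes reported to act on SNAI1 and its relatives, 3 of 8 were higher (Usp3, Usp29 and Usp47) and Usp1 was lower under both treatments. The p53 and MDM2 group of 8 had 1 higher and 2 lower under TGFβ and 0 higher and 4 lower under SB505124. Those 4 include Usp2, which had to differ to be a member. The DNA repair and replication group had Usp47 higher and Usp1 and Usp48 lower under both treatments. Usp1, Usp48 and Usp24, which is in the p53 list, lie on chromosome 4. There the median log2 difference of all tested genes was -0.68 under TGFβ and -0.69 under SB505124. The innate immunity group of 8 had 4 higher and 1 lower under TGFβ and 1 higher and 2 lower under SB505124. Otud5, in both the p53 and the innate immunity list, was lost under TGFβ without WT replicate 2 or either KO-labelled library (adjusted p 0.0218 to 0.108 over the alternatives), and Usp42 of the p53 list under SB505124 without WT replicate 1 or KO-labelled replicate 2 (0.00602 to 0.149). Of the mitochondrial and ER enzymes, Usp19 and Usp33 were higher under both treatments and Usp35 under SB505124 alone. Under SB505124 the Usp19 call was lost in 13 of 17 alternatives (adjusted p 0.0215 to 0.232), among them each SB505124 library and each KO-labelled TGFβ library left out, and the Usp35 call in 8 of 17 (0.023 to 0.371), among them without WT SB505124 replicate 2 or either KO-labelled SB505124 library. Of the proteasome-bound pair, Usp14 was higher under both treatments and Uchl5 under SB505124 alone. Usp25, which is related to Usp28 and acts in innate signalling, had 2380 and 2064 normalised counts in KO-labelled and 1115 and 1313 in WT TGFβ libraries, and 2820 and 2476 in KO-labelled and 1741 and 1794 in WT SB505124 libraries. Usp32, a Golgi-linked enzyme, had 2049 and 1923 in KO-labelled and 996 and 1158 in WT TGFβ libraries, and 2836 and 2342 in KO-labelled and 1651 and 1647 in WT SB505124 libraries. Both stood clearly apart, with log2 fold changes of 0.87 and 0.58 for Usp25 and 0.89 and 0.64 for Usp32 (limma adjusted p at most 4.85e-05). Usp34 was higher by 0.77 log2 under TGFβ (limma adjusted p = 3.72e-06) and 0.37 under SB505124 (limma adjusted p = 0.00523), and the call under SB505124 was lost without WT SB505124 replicate 1 (0.0526) or KO-labelled SB505124 replicate 1 (0.118), with 0.000195 to 0.118 over the alternatives.

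The length of the genes was described beside the response. In KO-labelled cells the 17 members lower under TGFβ had a median gene span of 57.1 kb and the 42 members not called 36.7 kb, and over all tested genes with a position the medians were 36.9 and 21.5 kb. In WT cells the 26 lower members had a median of 56.6 kb and the 33 not called 28.8 kb, against 43.1 and 20.8 kb over all genes. Across genes, Spearman's rho between span and log2 fold change was -0.23 over the 60 members and -0.17 over 11922 genes in KO-labelled cells, and -0.26 and -0.28 in WT cells. Genes share the libraries and are not independent replicates. Among the members that fell, Otud1 was the shortest with a span of 2832 bases, followed by Usp17la with 5659, and Usp29 spans 236642. The part of gene length in the falls was not tested.

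**Figure D4:**
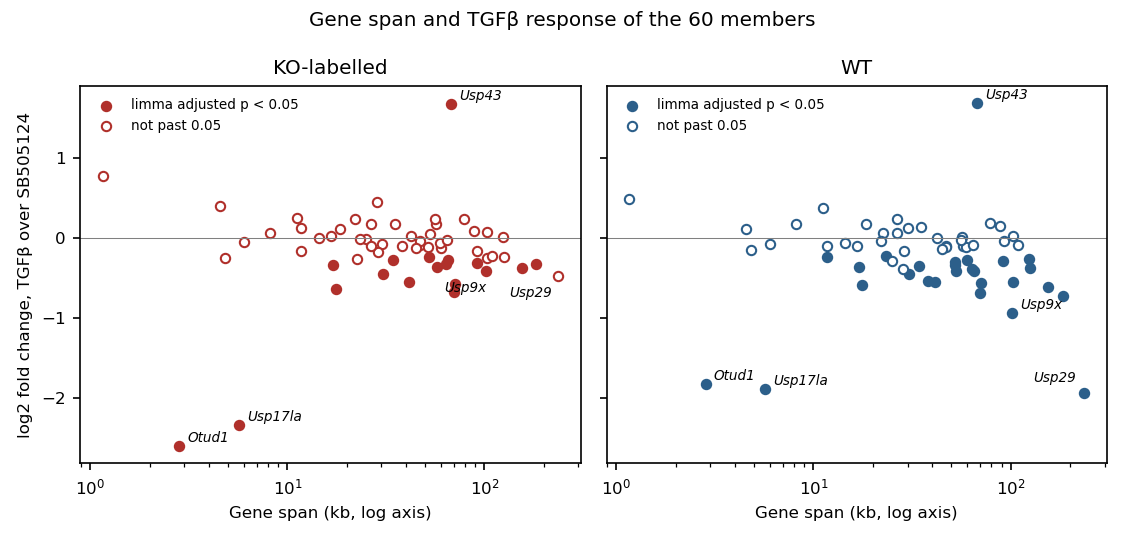
Log2 fold change of TGFβ over SB505124 (y axis) against gene span in kb (x axis, log scale) for the 60 members, in KO-labelled (left) and WT cells (right). Filled points passed limma adjusted p under 0.05. Otud1 and Usp17la combine short genes with the lowest values in KO-labelled cells, and Usp43 stands alone at the top in both panels.

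Related genes outside the family were counted for comparison, beside 15.1% of all genes higher and 15.8% lower under TGFβ in KO-labelled cells. In WT cells those shares were 20.2% and 23.2%. Of 27 tested deubiquitinases of other classes or names, 2 were higher and 5 lower under TGFβ in KO-labelled cells and 7 higher and 7 lower in WT cells. Cyld, a deubiquitinase that restrains NF-kB signalling, had 3455 and 3134 normalised counts in KO-labelled TGFβ libraries and 4300 and 3804 under SB505124, and in WT cells 1856 and 2122 under TGFβ and 2533 and 2561 under SB505124. Atxn3 and Fam63b were also lower in both genotypes, by -0.40 and -0.47 log2 in KO-labelled and -0.48 and -0.57 in WT cells, and Mysm1, a histone H2A enzyme, was higher in both, by 0.53 and 0.27. Of 9 ubiquitin ligases of TGFβ receptors and SMADs, 4 were higher and 2 lower in KO-labelled cells and 2 higher and 2 lower in WT cells. Smurf1 had 4777 and 4529 in KO-labelled TGFβ libraries and 2232 and 2190 under SB505124, and in WT cells 4574 and 4276 under TGFβ and 2915 and 3034 under SB505124. Its rise was 1.07 log2 in KO-labelled and 0.57 in WT cells, and the difference of 0.50 was called (SE 0.11, limma adjusted p = 0.013). Of 14 tested partner proteins and substrates of the family, 1 was higher and 4 lower in KO-labelled cells and 2 higher and 6 lower in WT cells. Mdm2, a substrate of Usp7 and Usp2, was the 1 higher in both, by 0.79 and 0.60 log2 (limma adjusted p = 1.93e-07 and 6.83e-06). Wdr20, partner of Usp12 and Usp46, was lower in both, by -0.25 and -0.25 (limma adjusted p = 0.048 and 0.0358).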

How the data were processed

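Gene-level RNA-seq of 8 libraries was analysed. The mm10 build is named in the submitters' processing notes, which also list DESeq2 3.4, HTSeq 0.6.1p1 and FastQC 0.11.5, and the aligner is not given in the sources used here. The deposited values are a signal on a normalised count scale: as the values themselves show, each is a whole read count divided by a size factor of its library (0.875 to 1.16). Of these values, 100% came out as whole reads within 0.01 reads once multiplied back. The kit is unstranded, per the labels' protocols.

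Groups came from the sample titles. Genes with a mean of at least 10 were fitted on log2(value + 1), which understates changes of low genes, with limma 3.58.1 (R 4.3.3, variance trend, 4 group means, all 8 libraries), Benjamini-Hochberg adjustment over 12498 genes and a threshold of 0.05. On the recovered reads edgeR 4.0.16 called 4023 genes for the TGFβ response in KO-labelled cells, 5552 for that in WT cells, 7926 between genotypes under TGFβ, 7233 under SB505124 and 418 for the difference of responses, against 3864, 5416, 7865, 7117 and 352 by limma. DESeq2 1.42.0, other pseudocounts and filters, TMM scaling, a replicate block and leaving out each library were the alternatives. Tables were handled with Python 3.11.15 and pandas 2.3.3, and the fit was tested on simulated data.

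The members and the gene lists were chosen with earlier results of these data known. Members given with every library's value were up to 5 of the largest rises and falls per comparison whose groups do not overlap, plus those with a published role in TGFβ signalling, and any member could be named; some others were added after their values were seen. The 26 symbols converted to dates and 4 rows sharing a name were not named. Positions and exon lengths come from GENCODE M21 (GRCm38) and promoters from RefSeq. Protein comparisons were not run. Results for 1 list of related genes outside the family are not reported here.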

Additional observations from a re-analysis of the deposited data

Results flagged for a closer look

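By a direct test, the difference of the TGFβ responses between the genotypes was called for 2 members. These were 3.33% of the 60 members, close to the 2.25% of all genes called higher. For Otud4 the KO-labelled minus WT difference was 0.44 log2, with a response of -0.10 in KO-labelled and -0.53 in WT cells. For Usp29 it was 1.46 log2, with -0.47 in KO-labelled and -1.94 in WT cells. Rreb1 was higher in the KO-labelled libraries, so the direction rests on the label. Neither call was stable: Otud4 lost it in 9 of 17 alternatives (limma, edgeR or DESeq2 adjusted p 0.00964 to 0.3) and Usp29 in 13 of 16 (0.00451 to 0.185), and with the replicate number as a block the limma adjusted p was 0.0592 and 0.0858.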

How the results depend on the processing

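Among 26 members described in full, 40 of 60 calls held in every alternative with a test. Of the rest, 20 were lost in at least 1 and 0 changed sign, and 12 of 70 results without a call gained one. The 60 calls include genotype calls of Uchl1, Usp17lc and Usp2, which had to differ to be members. Nothing is read from those, and the counts between genotypes below include them too. The count of members higher under TGFβ in KO-labelled cells was 1, and 3 without the variance trend, 3 with edgeR and 2 with TMM scaling; the count lower was 17, and 11 without the trend. The difference of responses was called higher for 2 members, for 1 with a pseudocount of 0.5, of 8 or a mean of at least 50, and for 0 with no filter or no trend. It was called lower for 0, and for 1 with a mean of at least 50 or with edgeR. Leaving out 1 library gave, in KO-labelled cells, 1 to 2 higher and 7 to 20 lower, and in WT cells 1 to 3 higher and 19 to 27 lower. Between genotypes it gave 22 to 26 higher and 9 to 12 lower under TGFβ, and 13 to 24 higher and 8 to 14 lower under SB505124. For the difference it gave 0 to 3 higher and 0 to 2 lower. Where a group was left with 1 library, that library was assumed to vary like the others. Subtracting the chromosome median turned the KO-labelled minus WT sign for Otud6b (0.13 under TGFβ, 0.12 under SB505124), Usp1 (0.09, 0.016), Usp45 (0.328, 0.348), Otud3 (0.238, 0.307), Usp24 (0.316, 0.188), Usp48 (0.171, 0.106) and Uchl3 (0.289, 0.301), which leaves Usp54 of the 8 members on chromosomes 4 and 14; some uncalled differences near 0 turned as well. With the replicate number as a block, 0 members were called for the difference. Deviations of same-numbered libraries correlated at 0.102 between the KO-labelled and 0.198 between the WT treatments, and at -0.199 to -0.025 in the other pairs of groups, so the numbers were not taken to pair libraries. The cause of these changes was not tested.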
